A study of Mus musculus with 8 samples.

Results

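The 10 genes described here are receptors and chemokines that steer B cells through lymphoid tissue. Cxcr4, Cxcr5, Ccr6, Ccr7, Gpr183 and S1pr2 encode receptors, and Ccl22, Ccl17, Ccl3 and Ccl4 encode secreted chemokines. They were chosen by gene name, with earlier results of these data known, from the 53242 genes of the count and TPM tables, and all 10 were found in both.

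RNA was measured in splenic B cells of C57BL/6 mice aged 8 to 12 weeks after a 24 h culture on CD40LB cells in medium with 40 ng/ml of IL4. These feeder cells display CD40 ligand and secrete BAFF, and they had been irradiated with 120 Gy and were depleted with antibody-coupled beads before the RNA was taken. Eif4a1+/+ mice (control) were compared with Eif4a1fl/fl mice (4A1 KO), in which loxP sites flank exons 2 to 4 of the gene for the RNA helicase EIF4A1. Mice of both groups carried the CD23-cre transgene, which is driven by Fcer2a regulatory sequence and, by the study's account, deletes the gene in immature B cells of the spleen, so that Cre is shared by the groups and deletion is restricted to cells in which the transgene is active. There were 4 libraries per genotype, each from 1 mouse. Replicates 1 and 3 were male, replicates 2 and 4 female, and batch A held replicates 1 and 2 while batch B held the rest. Replicate 1 of each genotype had reduced viability and did not enter the study's differential expression, so tests below use replicates 2 to 4 (n = 3 per genotype) and values are shown for all 8 libraries.

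Chemokines are small secreted proteins that bind G protein-coupled receptors and make cells move up a gradient. In the spleen and lymph nodes CXCR5 draws B cells into follicles towards CXCL13, CCR7 draws them to the border with the T cell zone towards CCL19 and CCL21, and GPR183 responds to oxysterols made at the edges of the follicle. S1PR2 senses sphingosine-1-phosphate and holds cells in the follicle centre, whereas CXCR4 and its ligand CXCL12 place cells in the dark zone of the germinal centre. Activated B cells also secrete chemokines. CCL17 and CCL22 attract T cells that carry CCR4, and CCL3 and CCL4 attract T cells and myeloid cells.

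The 4 chemokine genes lie as 2 neighbouring couples. In GRCm39, Ccl22 (chr8:95471226-95478327, plus strand, ENSMUSG00000031779) and Ccl17 (chr8:95534358-95538664, plus strand, ENSMUSG00000031780) are 56.03 kb apart. Ccl3 (chr11:83538670-83540191, minus strand, ENSMUSG00000000982) and Ccl4 (chr11:83553383-83555509, plus strand, ENSMUSG00000018930) are 13.19 kb apart and point in opposite directions. Ccl3 and Ccl4 share their chromosome with the targeted gene at distances of 13.98 and 13.99 Mb, and Ccr7 lies 29.47 Mb from it. Each of the 4 chemokine genes has 3 exons in its canonical transcript. Their promoters are shown as the 250 bases upstream of the canonical start, written 5′ to 3′ on the strand of the gene. Motifs of factors that CD40 or IL4 signalling is known to activate (NF-kB and STAT6) were searched on both strands, and capitals mark the match found.
Ccl22 promoter (chr8:95471968-95472217, plus): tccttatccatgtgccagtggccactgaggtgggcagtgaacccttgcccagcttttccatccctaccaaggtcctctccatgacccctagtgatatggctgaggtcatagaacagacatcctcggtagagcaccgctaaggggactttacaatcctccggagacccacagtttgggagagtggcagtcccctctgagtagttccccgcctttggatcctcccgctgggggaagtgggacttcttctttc
Ccl17 promoter (chr8:95536825-95537074, plus): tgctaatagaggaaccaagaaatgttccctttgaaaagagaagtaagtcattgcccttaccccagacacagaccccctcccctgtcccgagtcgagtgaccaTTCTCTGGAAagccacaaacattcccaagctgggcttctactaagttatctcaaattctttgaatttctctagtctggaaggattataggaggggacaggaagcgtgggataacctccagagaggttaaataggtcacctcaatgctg
Ccl3 promoter (chr11:83540192-83540441, minus): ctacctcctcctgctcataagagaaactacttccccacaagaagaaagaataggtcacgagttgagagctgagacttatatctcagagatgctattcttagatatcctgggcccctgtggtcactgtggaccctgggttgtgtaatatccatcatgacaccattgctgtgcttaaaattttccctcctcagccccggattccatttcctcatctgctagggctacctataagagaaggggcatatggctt
Ccl4 promoter (chr11:83553133-83553382, plus): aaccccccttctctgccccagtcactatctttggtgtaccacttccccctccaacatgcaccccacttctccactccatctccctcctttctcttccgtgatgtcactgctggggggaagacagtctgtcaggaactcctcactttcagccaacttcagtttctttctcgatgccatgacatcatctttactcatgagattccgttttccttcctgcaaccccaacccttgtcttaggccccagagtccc

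The Ccl17 window held 1 match to the STAT6 motif TTCNNNNGAA, whose first base lies 148 bases before the start. The Ccl22, Ccl3 and Ccl4 windows held no match to it, to the NF-kB consensus or to the AP-1 motif TGANTCA. Among Cxcr4, Ccr6, Ccr7, Gpr183 and S1pr2, the Ccr7 window held 1 AP-1 match, 122 bases before the start. The Cxcr5 window is not described here. Of the 11627 tested genes with a coding model, 4.38% had an NF-kB match in the same window, 5.1% a STAT6 match and 4.31% an AP-1 match. These are matches of letters and not measured binding sites.

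Before the members, the libraries were checked as a whole. They held 31727557 to 43210858 counts, and mitochondrial genes took 0.974 to 1.59% of them. Eif4a1 had 748 to 939 CPM (counts normalised to library size) in control and 556 to 689 CPM in 4A1 KO libraries, a log2 fold change of -0.44 (SE 0.05, n = 3 per genotype, edgeR adjusted p = 1.15e-04), counted over the whole gene and not over the floxed exons. The 8 B cell markers examined were detected in every library, with a summed level of 8677 to 11882 CPM in control and 8960 to 12665 CPM in 4A1 KO, most of it Cd74, and 3 of them were called lower in 4A1 KO (Cd79a -0.67, Cd79b -0.89 and Cd22 -0.76 on the log2 scale). Of 8 T cell markers 1 to 4 had a count in a library, with a summed level of 14.0 to 23.5 CPM in control and 9.96 to 18.7 CPM in 4A1 KO that came almost wholly from Lck (404 to 944 counts). Cd3g and Cd247 were at 0 counts in all 8 libraries, although Cd247 had a mean of 0.145 TPM in control and 0.0959 TPM in 4A1 KO (replicates 2 to 4). A gene was called when its adjusted p was under 0.05 and its absolute log2 fold change above 0.5. By this rule 25.3% of the 14218 genes tested in the counts were called, 13.7% lower and 11.6% higher in 4A1 KO, and 20.2% of the 12976 genes tested in the TPM. In the fit of all 8 libraries 25.6% of 14211 genes were called.

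Among the 10 members, Cxcr5 and Ccl22 were lower in 4A1 KO B cells and Ccl3 and Ccl4 were higher, whereas Cxcr4, Ccr6, Ccr7, Gpr183, S1pr2 and Ccl17 were not called. All 10 passed the filter on low counts, but Ccl3 and Ccl4 did so through their 4A1 KO libraries, reaching its level in 2 and 0 of 3 control libraries, so their calls add nothing to their counts and are given as a description. For this reason the 4 calls among 10 are not read against the 25.3% called among all genes. In the TPM 9 members were above the filter of 1 TPM, S1pr2 being under it, and 3 were called, namely Cxcr5, Ccl22 and Ccl4, the last of which again passed the filter through 4A1 KO alone. These are levels in bulk RNA, in which fewer cells of a type and less RNA per cell cannot be told apart.

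**Figure D1:**
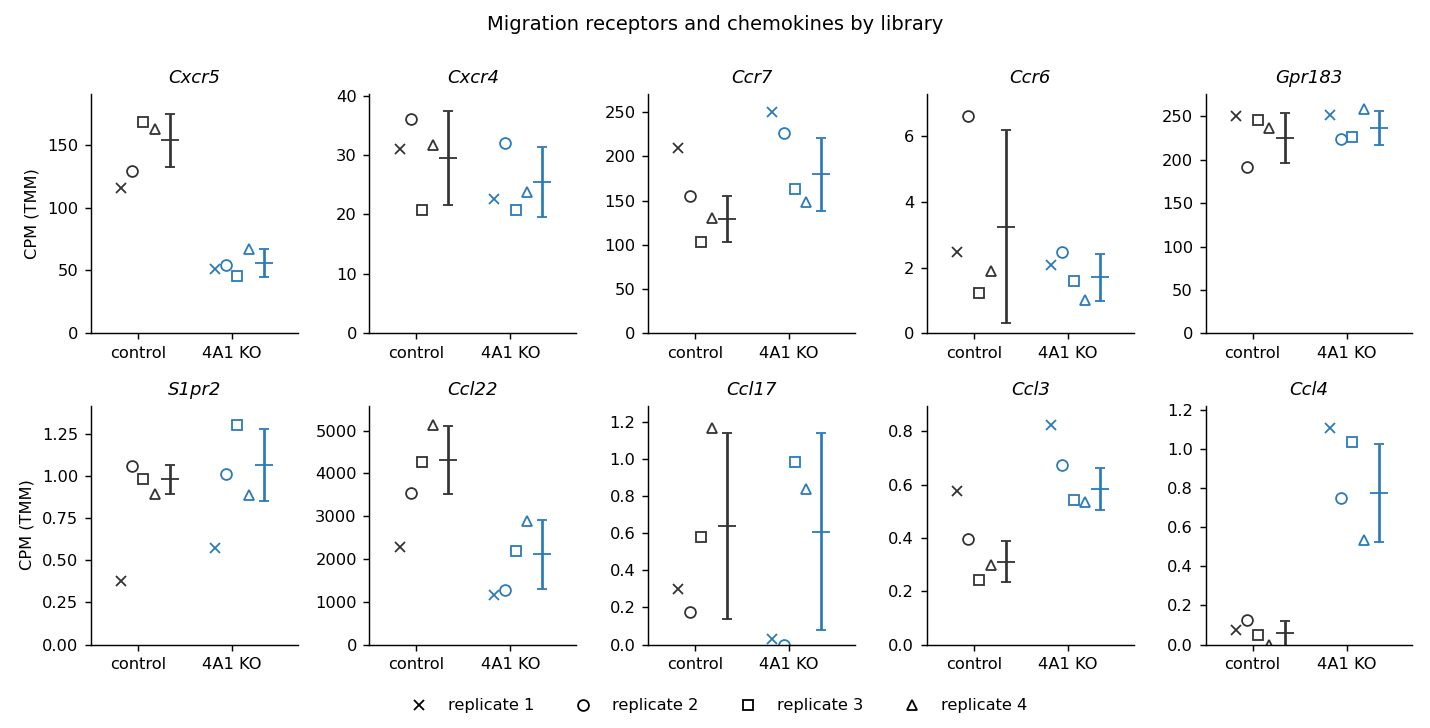
Normalised level of the 10 genes in each of the 8 libraries, in CPM (linear axes from 0). Symbols mark the replicate, and the bar beside each group is the mean ± SD of replicates 2 to 4. The 4A1 KO libraries lie below every control library for Cxcr5 and above every control library for Ccl4.

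Cxcr5, the follicle-homing receptor, fell in every 4A1 KO library. It had 116, 129, 168 and 163 CPM in control 1 to 4 and 51.2, 54.4, 45.2 and 67.2 CPM in 4A1 KO 1 to 4. The highest 4A1 KO library was well below the lowest control, and the groups did not overlap (exact permutation test over 8 libraries, two-sided, p = 0.0286, the smallest that 4 against 4 allows). Such separation of all 8 libraries was found for 36.9% of the 14218 genes tested. The fitted level was 2.77-fold lower in 4A1 KO, a log2 fold change of -1.47 (SE 0.11, n = 3 per genotype, edgeR adjusted p = 2.23e-05). Per length, it went from 111 ± 17.1 TPM to 40.1 ± 8.17 TPM (SD, n = 3). The ratio within the 4 same-numbered pairs ran from -1.89 in replicate 3 to -1.17 in replicate 1 on the log2 scale. Cxcr5 (ENSMUSG00000047880, chr9:44423083-44473174, minus strand) overlaps a lncRNA, Gm57025, on its own strand, so reads in the shared stretch cannot be assigned to one of them by strand.

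Cxcr4 and Ccr7 differed between the genotypes by less than the fold threshold. Cxcr4, the receptor for CXCL12, had 31.1, 36.1, 20.8 and 31.7 CPM in control 1 to 4 and 22.7, 31.95, 20.7 and 23.7 CPM in 4A1 KO 1 to 4. It was lower in 4A1 KO in 4 of 4 pairs, but in replicate 3 the libraries were nearly level and the groups overlapped. The log2 fold change of -0.20 (SE 0.09, n = 3 per genotype, edgeR adjusted p = 0.0814) was not called, and with all 8 libraries it was -0.27 (adjusted p = 0.0149), still under the fold threshold.

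Ccr7, the receptor for the T zone chemokines, had 209, 155, 103 and 131 CPM in control 1 to 4 and 250, 227, 164 and 149 CPM in 4A1 KO 1 to 4. Batch A libraries were the higher ones in both genotypes, so that the groups overlapped although 4A1 KO was higher in 4 of 4 pairs. The difference of 0.47 on the log2 scale (SE 0.08, n = 3 per genotype, edgeR adjusted p = 0.00142) passed the test but not the fold threshold. It was 0.61 and called without replicate 4. Over the alternatives that test for a difference, the adjusted p of edgeR or DESeq2 ran from 2.99e-07 to 0.0829, the latter without the replicate block. Ccr7 was not called in the test against the fold threshold itself. Per length, Ccr7 had 124 ± 24.3 TPM in control, close to Cxcr5, and 170 ± 36.1 TPM in 4A1 KO (SD, n = 3).

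Gpr183, the oxysterol receptor, had the highest mean TPM of the receptors in control and the smallest difference of the 10 genes. It had 251, 192, 246 and 237 CPM in control 1 to 4 and 251, 224, 226 and 259 CPM in 4A1 KO 1 to 4. The ranges lay on top of each other, and the log2 fold change was 0.08 (SE 0.07, n = 3 per genotype, edgeR adjusted p = 0.351) with an unadjusted 95% interval of -0.07 to 0.23. Gpr183 lies inside Ubac2 on the opposite strand, and the counting took strand into account.

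Ccr6, the receptor for CCL20, was low and uneven among control libraries. Its values were 2.48, 6.61, 1.23 and 1.88 CPM in control 1 to 4 and 2.06, 2.47, 1.60 and 1.03 CPM in 4A1 KO 1 to 4. Control 2 stood above the other 7 libraries. The summed level of the 12 feeder cell markers was also highest in control 2, at 51.2 CPM against 25.2 to 41.5 CPM in the other libraries, mainly through Col1a1 (1107 counts against 218 to 510). The 41.5 CPM were in control 4 and mostly from Thy1 (1365 counts, against 206 in control 2). The summed level of the 8 dendritic cell markers was not highest in control 2, at 27.7 CPM against 21.6 to 44.2 CPM, since Flt3 was highest there (403 counts) and Zbtb46 lowest (669 counts). The part of these in the Ccr6 value was not tested. The log2 fold change of -0.73 (SE 0.30, n = 3 per genotype, edgeR adjusted p = 0.0689) was not called. It was called at -1.19 without replicate 3 and fell to -0.25 without replicate 2, with adjusted p between 0.00108 and 0.584 over the alternatives.

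S1pr2, the sphingosine-1-phosphate receptor, was low, with 15, 43, 41 and 39 counts in control 1 to 4 and 18, 39, 53 and 38 counts in 4A1 KO 1 to 4. Replicate 1 was the lowest library in both genotypes. No difference was detectable at this depth (log2 fold change 0.11, SE 0.23, n = 3 per genotype, edgeR adjusted p = 0.699), and the unadjusted 95% interval of -0.40 to 0.63 includes changes past the threshold in the positive direction. The value was -0.04 without replicate 3.

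Ccl22, the CCR4 ligand, was by far the most abundant of the 10 mRNAs and fell in 4A1 KO. It had 2277, 3551, 4257 and 5120 CPM in control 1 to 4 and 1146, 1272, 2183 and 2878 CPM in 4A1 KO 1 to 4. In both genotypes the batch B libraries were above the batch A libraries, and control 1 lay below 4A1 KO 4, so that the groups overlapped in 8 libraries but not in replicates 2 to 4. Within each same-numbered pair 4A1 KO was lower, in 4 of 4 pairs. The fitted level was 2.13-fold lower, a log2 fold change of -1.09 (SE 0.10, n = 3 per genotype, edgeR adjusted p = 5.13e-05). The exact permutation test over the 8 libraries, which takes no account of batch, gave p = 0.0571 (two-sided). Ccl22 alone took 0.228 to 0.517% of all counts in control and 0.114 to 0.289% in 4A1 KO. By TPM its rank among all genes was 7 to 57 in control and 37 to 157 in 4A1 KO, with 3792 ± 829 and 1853 ± 765 TPM (SD, n = 3).

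Ccl17, its neighbour and the other CCR4 ligand, was low, and its counts were lower in batch A than in batch B in both genotypes. It had 12, 7, 24 and 51 counts in control 1 to 4 and 1, 0, 40 and 36 counts in 4A1 KO 1 to 4. In batch A the control libraries held 19 counts and the 4A1 KO libraries 1, a control to 4A1 KO ratio of 16.6 (95% interval 2.63 to 688, exact, counting error only). In batch B they held 75 and 76 counts, a 4A1 KO to control ratio of 1.03 (0.742 to 1.44). The pooled log2 fold change was -0.15 (SE 0.48, n = 3 per genotype, edgeR adjusted p = 0.813), with an unadjusted 95% interval of -1.23 to 0.93, and it was 0.09 without replicate 2 and 0.11 without replicate 4. The difference of the genotype effect between the batches was 3.88 on the log2 scale (SE 1.22, edgeR interaction term, adjusted p = 1). Over 4A1 KO 1 to 4, 3, 3, 8 and 7 of 9 macrophage and monocyte markers had a count, against 5, 5, 6 and 6 in control 1 to 4. Itgam had 1, 0, 17 and 24 counts in 4A1 KO 1 to 4 and 11, 13, 17 and 13 in control, Csf1r had 3, 2, 16 and 16 and then 2, 6, 8 and 4, and Itgax of the dendritic cell markers had 4, 4, 17 and 22 and then 7, 10, 5 and 6. C1qa and C1qb were at 0 in 4A1 KO 1 and 2 and at 4 to 8 counts in 4A1 KO 3 and 4. In control 1 to 4 C1qa had 0, 0, 0 and 2 counts and C1qb 0, 0, 15 and 1. Adgre1 differed from these, with 227, 304, 242 and 290 counts in 4A1 KO and 281, 221, 197 and 145 in control. Lyz2 had 0, 23, 30 and 52 in 4A1 KO 1 to 4 and then 32, 13, 42 and 16 in control. Of the other dendritic cell markers, Zbtb46 had 948, 995, 1717 and 1477 and then 755, 669, 1102 and 904. Flt3 had 15, 67, 27 and 47 and then 90, 403, 73 and 131. Cd209a had 17, 25, 30 and 23 and then 10, 11, 12 and 2. Xcr1 had 0, 5, 1 and 3 and then 3, 26, 5 and 8.

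Markers of other cells that can make these chemokines were measured as whole lists. The 9 macrophage and monocyte markers had a summed level of 4.15 to 8.38 CPM in control and 7.33 to 9.22 CPM in 4A1 KO, mostly from Adgre1 (log2 fold change 0.62, called higher), while Cd14 had 0 to 2 counts. Of 8 dendritic cell markers 4 to 6 were detected, with 21.6 to 28.8 CPM in control and 28.4 to 44.2 CPM in 4A1 KO, mostly from Zbtb46 (0.68, called higher). Cd209a was also called higher (1.72) and Flt3 lower (-1.89), and Clec9a was at 0 in all 8 libraries. Like Ccl3, Cd209a had few control counts, 11, 12 and 2 in control 2 to 4 against 25, 30 and 23 in 4A1 KO 2 to 4. Control 4 lay below the level of the filter on low counts, so the Cd209a call is given as a description. Their part in the Ccl17 values was not tested.

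**Figure D2:**
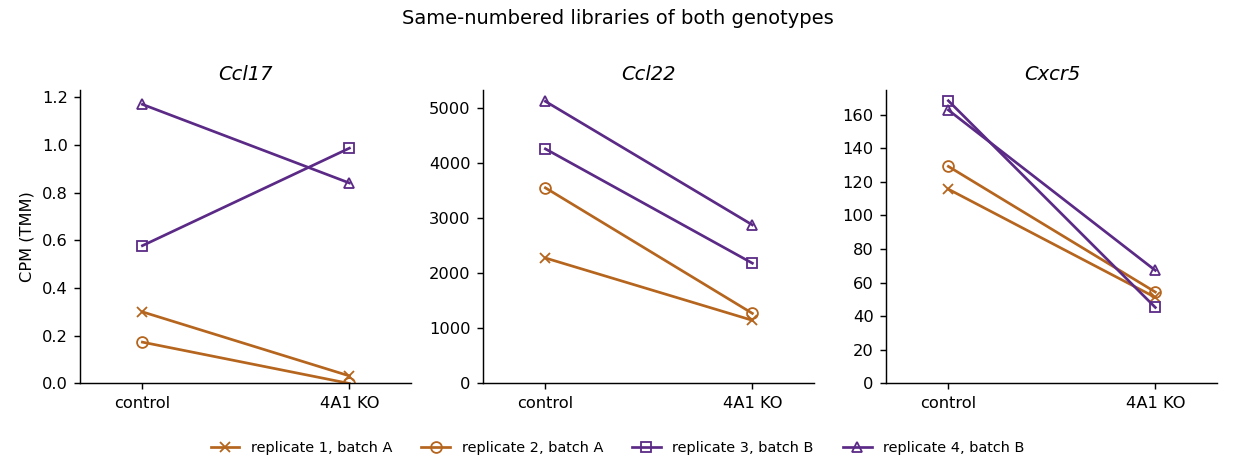
Same-numbered control and 4A1 KO libraries joined by lines for Ccl17, Ccl22 and Cxcr5, in CPM (linear axes from 0), coloured by batch. Ccl22 and Cxcr5 were lower in 4A1 KO in 4 of 4 pairs, whereas for Ccl17 the replicate 3 pair went up and the other 3 pairs went down.

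Ccl4 was higher in every 4A1 KO library than in any control, where it was close to 0. It had 3, 5, 2 and 0 counts in control 1 to 4 and 35, 29, 42 and 23 counts in 4A1 KO 1 to 4. The groups did not overlap. Over replicates 2 to 4 there were 94 counts in 4A1 KO against 7 in control, a depth-adjusted ratio of 13.8 (95% interval 6.45 to 35.3, exact, counting error only). It was 9.18 (4.39 to 22.2) in batch A and 33.2 (8.82 to 280) in batch B, from 8 and 2 control counts. As a description of a gene that entered the test through 4A1 KO alone, the fit gave a log2 fold change of 3.74 (SE 0.55, n = 3 per genotype), a value that depends on how 0 is handled. It was 4.90 without replicate 2, and DESeq2 with shrinkage gave 0.78. Of the myeloid and dendritic markers given above for Ccl17, Adgre1 and Zbtb46 were called higher in 4A1 KO as well. Cd209a was called higher at the few counts given there, Flt3 was called lower, and Itgam, Itgax and Lyz2 were not called. Their part in the Ccl4 and Ccl3 values was not tested. Even in 4A1 KO the level was low, at 2.24 ± 0.675 TPM (SD, n = 3).

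Ccl3, the neighbour of Ccl4 and a chemokine of the same family, was higher by a smaller margin. It had 23, 16, 10 and 13 counts in control 1 to 4 and 26, 26, 22 and 23 counts in 4A1 KO 1 to 4. Replicates 2 to 4 did not overlap, the 8 libraries did, and 4A1 KO was higher in 4 of 4 pairs (exact permutation test over 8 libraries, two-sided, p = 0.0857). As a description, since Ccl3 entered the test through 4A1 KO, its log2 fold change was 0.91 (SE 0.31, n = 3 per genotype). It was called by the rule (edgeR adjusted p = 0.0343), and the call was lost in 7 of 12 alternatives, among them DESeq2 (0.29, adjusted p = 0.296) and every fit without 1 of the 3 replicates. Adjusted p ran from 0.0201 to 0.296 over the alternatives.

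**Figure D3:**
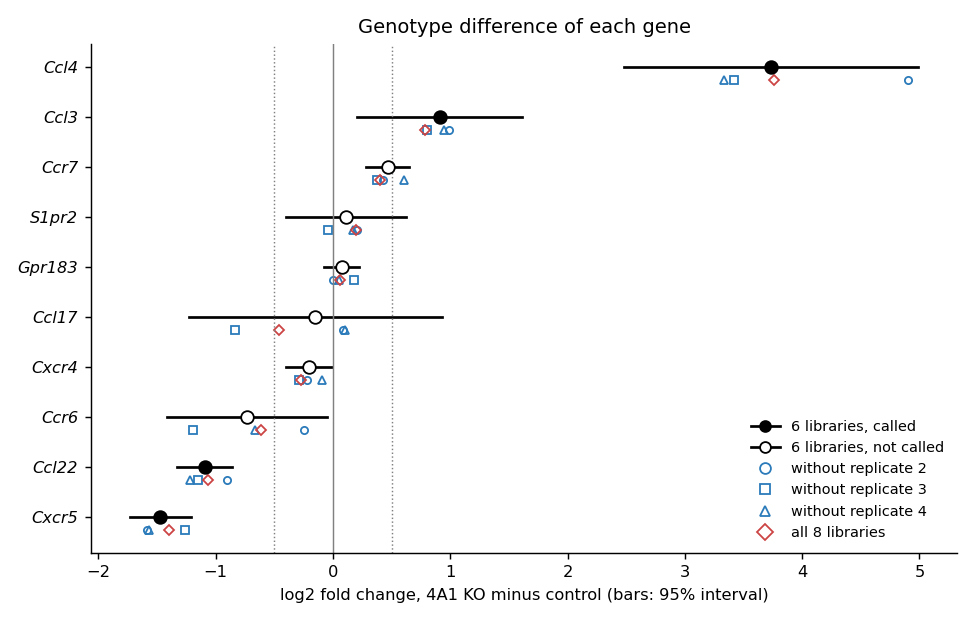
Log2 fold change (4A1 KO minus control) of each gene in replicates 2 to 4, with its unadjusted 95% interval. Filled circles were called, open circles were not, small symbols give the value without one replicate or with all 8 libraries, and dotted lines mark the threshold of 0.5. Cxcr5 and Ccl22 stay below -0.5 in each setting shown. Ccl4 stays above 0.5, but its entry into the test through 4A1 KO alone leaves that no sign of stability. The filled circles of Ccl3 and Ccl4 are a description for this reason.

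The genotype effect was not shown to differ between the sexes or the batches for any of the 10 genes (adjusted p = 1 for each of the 20 terms, edgeR interaction terms over 8 libraries and 14211 genes). The estimated Ccl22 effect differed between batch B and batch A by 0.34 on the log2 scale (SE 0.13), and that of Ccr6 between males and females by 1.23 (SE 0.41).

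Ordered by TPM, the control libraries had Ccl22 first, then Gpr183, Ccr7 and Cxcr5, then Cxcr4, then Ccr6, Ccl17 and Ccl3, and last S1pr2 and Ccl4. Gpr183 did not exceed Ccr7, nor Ccr7 Cxcr5, in every control library of replicates 2 to 4. In 4A1 KO the order by mean TPM was Ccl22, Ccr7, Gpr183, Cxcr5, Cxcr4, Ccl17, Ccl4, Ccr6, Ccl3 and S1pr2. It did not hold in every library. Gpr183 was above Ccr7 in 4A1 KO 3 (160 and 155 TPM) and 4A1 KO 4 (188 and 144 TPM), and Ccl17 was at 0 TPM in 4A1 KO 2. Cxcr5 had dropped to 40.1 ± 8.17 TPM beside Cxcr4 at 26.9 ± 5.73 TPM (SD, n = 3), and it stayed above Cxcr4 within each of the 8 libraries.

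The receptor of CCL17 and CCL22 was itself expressed at a low level, lower in 4A1 KO in each same-numbered pair. Ccr4, which encodes it, had 17, 26, 88 and 131 counts in control 1 to 4 and 0, 3, 13 and 50 counts in 4A1 KO 1 to 4. Batch B was higher in both genotypes, so the groups overlapped, and it reached the filter's level in 3 of 3 control but 2 of 3 4A1 KO libraries. As a description, since Ccr4 entered the test through control, its log2 fold change was -2.02 (SE 0.32, n = 3 per genotype). It was -2.79 without replicate 4, -3.61 in batch A alone and -0.92 with DESeq2 and shrinkage, and it was not called without the replicate block (-1.86, edgeR adjusted p = 0.101, the highest of its 12 alternatives, which started at 3.12e-05). Per length it had 1.36 ± 0.862 TPM in control and 0.391 ± 0.409 TPM in 4A1 KO (SD, n = 3).

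The chemokine ligands of the receptors were at or near 0 counts. Ccl19, Ccl20 and Ccl21a had 0 counts in replicates 2 to 4 of both genotypes, and Cxcl12 and Cxcl13 had 3 counts each in those 6 libraries together. A count of 0 allows up to 3 counts in a library. Ch25h and Cyp7b1, which make the oxysterol ligand of GPR183, also had 0 counts in those libraries. Sphk2, a kinase that makes the S1PR2 ligand sphingosine-1-phosphate, had 28.9 ± 1.32 TPM in control and 27.96 ± 1.51 TPM in 4A1 KO (SD, n = 3) and a log2 fold change of -0.04 (SE 0.06, edgeR adjusted p = 0.556). Hsd3b7, an enzyme that degrades the oxysterol ligand of GPR183, was higher in 4A1 KO (log2 fold change 0.94, SE 0.15, n = 3 per genotype, edgeR adjusted p = 9.77e-04), with 72, 82 and 92 counts in control 2 to 4 and 152, 142 and 163 in 4A1 KO 2 to 4. In batch A alone it was 0.50 and not called (adjusted p = 0.148, the highest of its alternatives, which started at 2.26e-04), control 1 having 167 and 4A1 KO 1 having 123 counts. The TPM of Hsd3b7 went the other way in replicate 1, with 0.545 in control 1 and 2.06 in 4A1 KO 1 beside 4.18 and 3.90 CPM.

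In the chemokine ligand family of 39 genes, 16 had 0 counts in the 6 libraries and 11 could be tested. Of these 4 were higher (Ccl3, Ccl4, Ccl28 and Cxcl10), 1 was lower (Ccl22) and 6 were not called. Of the 4 that were higher, Ccl3, Ccl4 and Ccl28 passed the filter on low counts through 4A1 KO, reaching its level in 2, 0 and 1 of 3 control libraries, so the share called is not read against the 25.3% of all genes. Cxcl10, a CXCR3 ligand induced by interferon, had a log2 fold change of 0.84 (SE 0.30, n = 3 per genotype, edgeR adjusted p = 0.0388). Its call was lost in 5 of 12 alternatives, among them the fit without the replicate block (adjusted p = 0.234). Adjusted p ran from 0.00909 to 0.297, the latter in the test against the fold threshold itself. Of the 23 genes of the receptor family reported here 8 could be tested, of which Cxcr5, Ccr4 and Ackr3 were lower and 5 were not called. Ccr4 passed the filter through control, so this share is not read against that of all genes either. Ackr3, a scavenger receptor for CXCL12, had a log2 fold change of -0.67 (SE 0.18, n = 3 per genotype, edgeR adjusted p = 0.0121) and was not called without replicate 2 (-0.37). Its adjusted p ran from 4.18e-04 to 0.329 over the alternatives, the latter in the test against the fold threshold itself.

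Of 20 receptors for lipids that guide migration, 16 could be tested, 6 were lower, 1 (S1pr3) was higher and 9 were not called (43.8% called, beside 25.3% of all genes), with a median of -0.27. S1pr1, the receptor that lets lymphocytes leave tissue towards sphingosine-1-phosphate, had 12.0, 6.06 and 6.10 CPM in control 2 to 4 and 6.77, 3.82 and 4.55 CPM in 4A1 KO 2 to 4. Its log2 fold change was -0.64 (SE 0.12, n = 3 per genotype, edgeR adjusted p = 0.00202), and the call was lost without the replicate block (adjusted p = 0.135) and in a test against the fold threshold itself (0.239), the range being 2.15e-04 to 0.239. S1pr4 fell by 0.94 on the log2 scale (SE 0.13), and Gpr174, the receptor for lysophosphatidylserine, by 0.67 (SE 0.10). Lpar2 and Lpar5, receptors for lysophosphatidic acid, fell by 0.90 (SE 0.08) and 1.49 (SE 0.23). Gpr132 and P2ry10, which together with Gpr183 had the highest TPM among the tested lipid receptors that were not called, had log2 fold changes of -0.07 (SE 0.05) and -0.15 (SE 0.06). Of 15 genes for enzymes and transporters of these lipids, 9 could be tested, 2 were higher (Hsd3b7 and Mfsd2b) and 1 was lower (Plpp2), 33.3% in all.

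The genes downstream of the receptors were examined next. Of 25 genes for G proteins and the actin machinery of migration 24 could be tested, and 2 were called (8.33%, beside 25.3% of all genes), both lower. They were Gng2, a G protein gamma subunit (-0.54, SE 0.10, and -0.43 and not called without replicate 3), and Wipf1, a partner of the actin regulator WASP (-0.59, SE 0.05). Coro1a, Cdc42 and Rac2, the most abundant by TPM of those not called, had log2 fold changes of -0.37, -0.09 and -0.39. Coro1a and Rac2 passed the test (edgeR adjusted p = 9.91e-04 and 1.92e-04) but not the fold threshold, and Cdc42 passed neither (0.106). Other genes of the list also passed the test and not the fold threshold, in both directions. Among them were Was (-0.42, edgeR adjusted p = 2.46e-04) and Gna13 (0.40, 8.38e-04). Among 16 genes that switch receptors off, 15 could be tested and 4 were lower, namely Rgs3, Rgs10, Rgs14 and Arrb1 (26.7%, close to the 25.3% of all genes), with log2 fold changes of -0.97, -1.28, -0.86 and -1.35. The Rgs3 call was lost without the replicate block (adjusted p = 0.0678, the highest of its alternatives, which started at 0.00134). Grk2, a kinase that desensitizes activated chemokine receptors, had 203 ± 5.59 TPM in control and 274 ± 3.07 TPM in 4A1 KO (SD, n = 3), and its log2 fold change of 0.43 (SE 0.04, edgeR adjusted p = 6.51e-05) was under the fold threshold. Cd69, which removes S1PR1 from the cell surface, had a log2 fold change of -0.28 (SE 0.08).

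**Figure D4:**
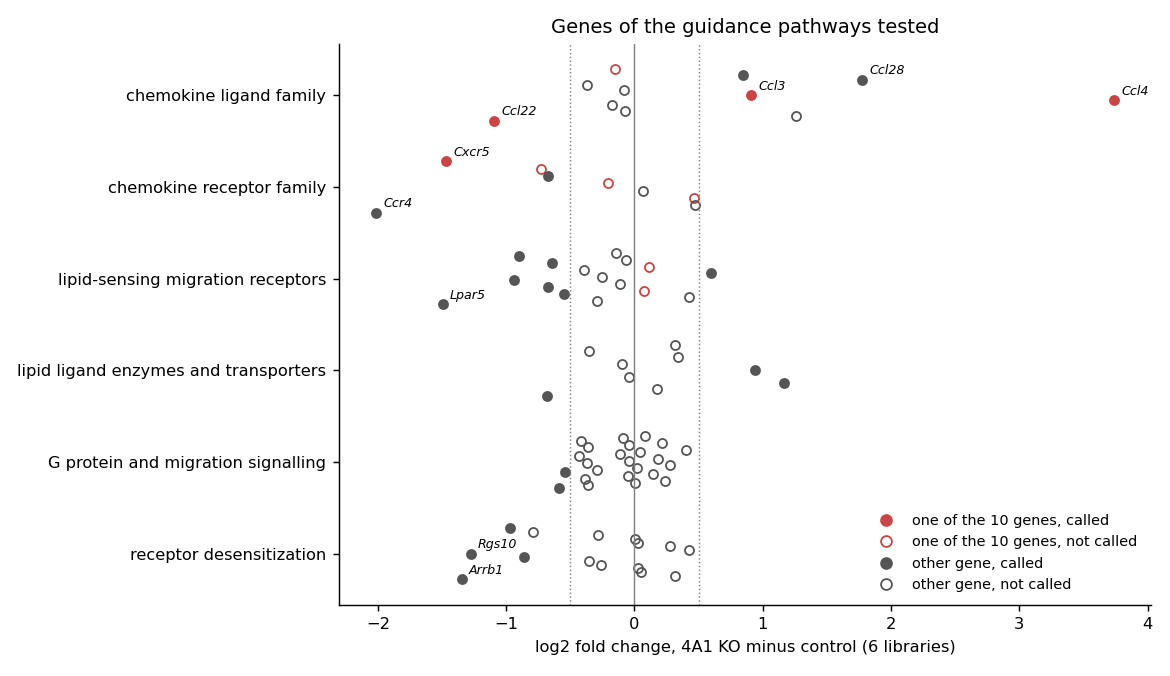
Log2 fold change (4A1 KO minus control, replicates 2 to 4) of each tested gene in 6 lists of guidance genes, 1 point per gene, filled where called. Red marks the 10 genes described here, dotted lines mark the threshold of 0.5, and vertical scatter within a row has no meaning. Ccl4 lies farthest to the right among the ligands, and Ccr4 and Cxcr5 farthest to the left among the chemokine receptors.

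The mRNAs of the 10 genes were also compared in features of sequence that their choice did not use. In the canonical transcripts, 9 of 10 had a 5′ UTR with a lower GC content than the median of 65.0% over the 11627 tested genes with a coding model, and 9 of 10 had a 5′ UTR shorter than the median of 226 bases. Gpr183 and Ccl22, of which one was not called and the other fell, had 49.4 and 48.4% GC. S1pr2, at 70.5%, was the exception to the first count and Ccr6, at 396 bases, to the second. Ccl17 at 64.0% GC and S1pr2 at 224 bases lay close to the medians. The 3′ UTR of Ccl3 held 5 copies of the AU-rich pentamer ATTTA in 409 bases (12.2 per kb), and that of Ccl4 held 2 in 302 bases (6.62 per kb). Cxcr5, Ccr6, Ccr7 and Ccl17 held none, and 6 of 10 genes held at least 1, beside 70.3% of the 11627 genes. AU-rich elements of this kind are known to mark chemokine mRNAs for fast decay.

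For each gene, the genes with the most similar pattern of log2 CPM over the 8 libraries were also listed, as a description over libraries that share genotype, batch and depth. Sumf2 (r = 0.994) and Mrps25 (0.992) were nearest to Cxcr5, and D430020J02Rik (0.992) and Ubap2 (0.992) to Ccl22. Ip6k2 (0.995) and Map3k9 (0.993) were nearest to Ccl3, and Ndfip1 (0.990) and Gm20489 (0.989) to Ccl4. Runx1 (0.980) was nearest to Cxcr4, Ccni (0.993) to Ccr6 and Zfp112 (0.983) to Ccr7. For Gpr183, S1pr2 and Ccl17 the highest r was 0.943, 0.966 and 0.971, with Gm2654, Gm2027 and Zfyve1.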

How the data were processed

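RNA from 8 libraries of cultured splenic B cells was analysed, grouped by the genotype in their labels. The authors trimmed the reads with Trim Galore 0.6.6, mapped them to GRCm39 with HISAT2 2.1.0 (versions per the submitters' processing notes) and counted them with Seqmonk on merged isoforms by strand, and deposited these raw counts. How reads with several positions were counted is not given in the sources used here. The authors deposited TPM from StringTie 2.1.1.

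Counts were filtered with filterByExpr, normalised with TMM and fitted with edgeR 4.0.16 (quasi-likelihood, two-sided, Benjamini-Hochberg over all genes tested) in R 4.3.3, with batch, sex and genotype, on replicates 2 to 4. There batch and sex equal the replicate number as a block. Same-numbered libraries are paired through batch and sex in the labels, and their deviations from the genotype means correlated across genes with r = 0.334 to 0.489, against -0.337 to 0.000833 for other pairs. TPM of genes with a mean of at least 1 were tested as log2(TPM + 1) with limma 3.58.1. CPM are TMM-normalised. Totals of 31727557 to 43210858 counts set the precision. Exact intervals of count ratios cover counting error only. Scripts were tested on simulated data. Alternatives were other size factors, DESeq2 1.42.0 with normal shrinkage, no filters, a pseudocount of 0.1, no block, all 8 libraries, glmTreat and leaving out each replicate. Batch A alone and the block in all 8 libraries were added after the data had been seen.

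The 10 genes and the lists were chosen with earlier results of these data known. The genes named are the 10, Eif4a1, up to 5 called genes of each list with the largest change and at least 1 CPM, the 3 most abundant of each list that were not called, and the 2 most correlated with each of the 10. S1pr3, Ccl28, Mfsd2b, Was, Gna13, the ligands and oxysterol enzymes at 0 and the markers are named outside this rule, after their values were seen. An item of the receptor list is not reported here. Models and sequences came from the GRCm39 genome with GENCODE M39.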

Additional observations from a re-analysis of the deposited data

Results flagged for a closer look

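S1pr2 was the one result marked for a closer look. Its level was higher in 4A1 KO in both male pairs and lower in both female pairs, and the mean log2 ratio of the pairs differed between males and females by 0.508. The libraries held 15 to 53 counts of S1pr2, and edgeR's interaction term for sex over the 8 libraries gave an adjusted p of 1. In 20 groups of 4 libraries, 1 for each gene and genotype, Dixon's test marked 0 outlying libraries, where chance would mark about 1.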

How the results depend on the processing

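Of 119 alternative values of the 10 genes in the counts, 7 lost a call (all Ccl3), 4 gained one (3 Ccr6, 1 Ccr7), 3 reversed and the others kept their direction and side of the threshold. Cxcr5 and Ccl22 were called in 12 of 12 alternatives each, as was Ccl4, whose entry through 4A1 KO alone leaves that no sign of stability. Without one replicate each, S1pr2 ran from -0.0376 (replicate 3 left out) to 0.206, and Ccl17 from -0.834 to 0.0869 (replicate 2 left out) and 0.107 (replicate 4 left out), none of them called. In the TPM 58 of 63 values kept both, 3 gained a call and 2 reversed, Gpr183 and Ccl17. Without one replicate each, Gpr183 ran from -0.00690 (replicate 2 left out) to 0.165 and Ccl17 from -0.564 to 0.120 (replicate 2 left out), and with a pseudocount of 0.1 Ccl17 was -0.907. Of the other named genes, Ccl5 and Ccl25, which were not called, reversed. Without one replicate each, Ccl5 ran from -0.654 to 0.504 (replicate 2 left out) and Ccl25 from -0.191 to 0.115 (replicate 3 left out). In batch A alone Ccl25 was 0.00927, and Ccl5 was -1.88 and called (edgeR adjusted p = 0.00272, against 0.747 in replicates 2 to 4). The cause was not tested.

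Leaving out one replicate gave 3 to 4 called members and 3083 to 3821 called genes in the counts, and 3 to 4 and 2447 to 2971 in the TPM. The test against the fold threshold itself (glmTreat) left 1627 genes and 3 members, and among the other named genes Cxcl10, Ackr3, S1pr1, Gpr174, Plpp2, Gng2, Wipf1 and Rgs3 lost their calls. Without the replicate block 4 members and 3000 genes were called, and in the TPM 3 members and 2367 genes. The block changed no call among the 10 genes in either table. DESeq2 called 3 members and 2590 of 14348 genes. With a pseudocount of 0.1, 4 members and 3048 of 12976 genes passed in the TPM. Ccl17 had too few counts to be tested in batch A alone, and exact permutation tests were not repeated on fewer libraries, where 3 against 3 cannot go below 0.1. Depth limits S1pr2, Ccl17, Ccl3 and Ccl4, which had at most 53 counts in any library.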
